A study of Mus musculus with 4 samples.

Results

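The 10 genes described here are the chemokines Ccl2, Ccl7, Ccl8, Ccl11, Cxcl1, Cxcl12, Cxcl14 and Cxcl16, the cytokine gene Il6 and Ackr3, which codes for an atypical chemokine receptor. They were chosen by name, and all 10 were found among the 18094 genes common to the 3 count tables used. Each was measured in smooth muscle cells, fibroblasts and macrophages, and the question was which of these classes was its main source. A cell was placed in the smooth muscle class with at least 5 UMIs of Myh11 and 0 of Pdgfra. The fibroblast class required at least 1 UMI of Pdgfra and at most 2 of Myh11. The macrophage class required at least 10 UMIs of C1qa, C1qb and Lyz2 together and fewer than 5 of Myh11. A UMI, or unique molecular identifier, stands for 1 captured transcript. Myh11 is smooth muscle myosin heavy chain, Pdgfra a receptor typical of fibroblasts, and the other 3 genes are typical of macrophages.

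All cells came from the ascending aorta of male mice of the Mef2c-mTmG strain, in which a reporter allele marks cells by lineage. The study set cells from the second heart field (SHF) against cells of other origins (CNC, an abbreviation that the labels do not spell out), untreated (Baseline) or after 3 days of infusion with angiotensin II (AngII), a hormone that raises blood pressure and is used to produce aortic disease in mice. Living single cells were sorted on the lineage reporter and captured by droplet single-cell RNA sequencing, so the sort set which cells could enter a library. SHF_Baseline, SHF_AngII and CNC_AngII were analysed, 1 library each, and CNC_Baseline was not analysed here. The age of the mice, the AngII dose and the number of mice per library are not given in the sources used here. With 1 library per group no difference between libraries has a replicate check, so no p-value is given, and every 95% interval below covers counting error only.

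Chemokines are small secreted proteins that guide migrating cells by binding G protein-coupled receptors. Ccl2 and Ccl7 draw monocytes through the receptor Ccr2, Ccl11 draws eosinophils through Ccr3, Cxcl1 draws neutrophils through Cxcr2, and Cxcl12 acts on Cxcr4. Ackr3 binds Cxcl12 and takes it up, which lowers its amount outside the cell. Interleukin 6 binds its receptor Il6ra together with the shared signalling chain Il6st and acts through Stat3. In the aortic wall, chemokines and interleukin 6 are known for their part in the recruitment of leukocytes during AngII infusion.

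The kept cells numbered 8374 in SHF_Baseline, 9299 in SHF_AngII and 10194 in CNC_AngII, with a median of 10315 to 13325 UMIs per cell. Smooth muscle cells made up 27%, 50% and 62.6% of them, and fibroblasts 47%, 28.4% and 8.18%. Macrophages numbered 7, 11 and 1756, so this class had enough cells to be ranked (at least 50) in CNC_AngII only. Between 11.9% and 25.9% of cells fell in no class. Markers that were not used in the gates followed the class names: the summed level of 8 smooth muscle markers was 60036 to 69339 CPM (counts per 1000000 UMIs) in smooth muscle cells and 1504 to 4420 CPM in fibroblasts. The 8 fibroblast markers summed to 18542 to 41058 CPM in fibroblasts and 3370 to 4059 CPM in smooth muscle cells. The 11 macrophage markers summed to 14039 CPM in macrophages of CNC_AngII, and to 2.36 to 12.4 CPM in smooth muscle cells and fibroblasts of the SHF libraries. In CNC_AngII they summed to 156 CPM in smooth muscle cells and 38.2 CPM in fibroblasts. Any pair of libraries shared 29 to 34 cell barcodes.

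Among the classes with at least 50 cells, fibroblasts had the highest level of all 10 genes in both SHF libraries, and macrophages had the highest level of 4 of them in CNC_AngII. The level of a gene in a class is the sum of its UMIs over the cells of the class in CPM, that is, per 1000000 UMIs of those cells. In SHF_Baseline and SHF_AngII the fibroblast class also held the largest share of the UMIs of each of the 10 genes, from 51.7% of those of Cxcl12 in SHF_AngII to 81.5% of those of Ccl11 in the same library. In CNC_AngII, macrophages had the highest level of Ccl2, Ccl7, Ccl8 and Cxcl16, and fibroblasts that of the remaining 6. The intervals of the highest class and the next were apart for each gene in each library, other than Cxcl14 in SHF_Baseline, which had 7 UMIs in fibroblasts and 0 in smooth muscle cells. No gene had its highest level in smooth muscle cells in any of the 3 libraries. The 7 and 11 cells of the SHF libraries that met the macrophage gate were not ranked. In them Ccl2 was at 1017 and 619 CPM and Cxcl16 at 917 and 304 CPM, above the fibroblasts. Il6, Ackr3, Ccl8 and Ccl11 had 0 UMIs in these cells, which allows up to 43 and 32.6 CPM on a limit of 3 counts. The fibroblast levels of Ccl8 in both libraries and of Ccl11 in SHF_AngII lay under these limits, so their order could not be told.

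**Figure D1:**
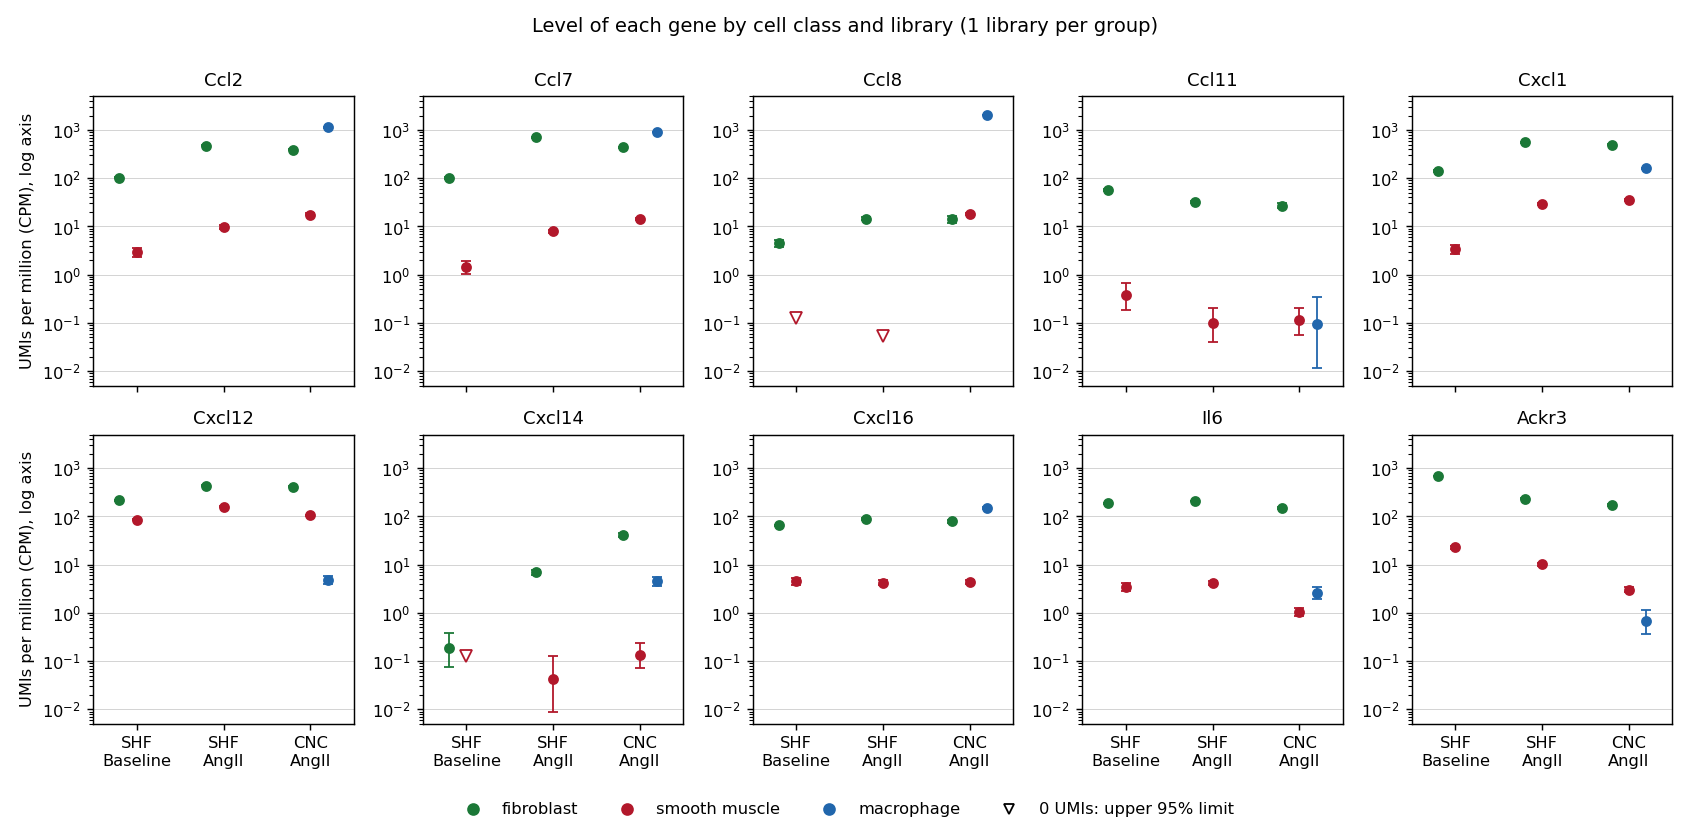
Level of each gene (y axis, CPM on a log axis) in fibroblasts, smooth muscle cells and, for CNC_AngII, macrophages of each library (x axis). Points are class totals with exact 95% Poisson intervals and open triangles mark the upper limit where a class had 0 UMIs. Fibroblasts lie highest for all 10 genes in both SHF libraries, and macrophages lie highest for Ccl2, Ccl7, Ccl8 and Cxcl16 in CNC_AngII.

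A member was called higher or lower where log2((CPM + 1)/(CPM + 1)) reached 1 or -1, a 2-fold ratio, with a mean level of at least 10 CPM. The single log2 ratios with intervals given in the text are without the pseudocount. In fibroblasts over smooth muscle cells, 8 members passed the minimum in SHF_Baseline and 8 were called higher, where 13.9% of all 7725 genes tested were. In SHF_AngII, 8 of 8 were called higher (12.8% of all genes tested), and in CNC_AngII 9 of 10 (12% of all genes tested). The median log2 ratio of the members that passed was 4.95, 4.65 and 4.53 in the 3 libraries, beside 0.19, 0.11 and 0.10 over all genes tested. No member was called lower (7.57%, 9.56% and 9.53% of all genes tested). In macrophages over fibroblasts of CNC_AngII, 3 of 10 members were called higher and 6 lower, beside 18.5% and 17.6% of all genes tested.

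Ccl2 and Ccl7 code for the monocyte chemokines MCP-1 and MCP-3 and lie next to each other on mouse chromosome 11. In the GENCODE M21 annotation of the GRCm38 build, Ccl2 spans chr11:82035571-82037453 and Ccl7 spans chr11:82045712-82047525, both on the plus strand. They belong to a run of 5 chemokine genes in the order Ccl2, Ccl7, Ccl11, Ccl12 and Ccl8 that covers 81.2 kb, and no other gene's exons overlap those of the 10 members on the same strand. The level of Ccl2 in fibroblasts was 103 CPM in SHF_Baseline (95% interval 100 to 107), 473 CPM in SHF_AngII (467 to 480) and 394 CPM in CNC_AngII (383 to 406). In smooth muscle cells it was 2.91, 9.73 and 17.7 CPM in the same order, and 64 of the 86 UMIs behind the first value came from 1 cell. In macrophages of CNC_AngII it was 1140 CPM (1125 to 1154), which was 2.89 times the fibroblast level. Smooth muscle was thus the lowest class for Ccl2 in each library. Under a stricter cell filter (1000 genes or more, mitochondrial UMIs up to 5%), which left 120 smooth muscle cells of SHF_Baseline, the log2 ratio of fibroblasts over smooth muscle cells there, with the pseudocount, was 1.28 instead of 4.74 for Ccl2 and 2.26 instead of 5.38 for Ccl7.

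Ccl7 stood at 101 CPM (97.8 to 104), 705 CPM (697 to 712) and 440 CPM (428 to 452) in fibroblasts of SHF_Baseline, SHF_AngII and CNC_AngII. Its smooth muscle levels were 1.46, 7.93 and 14.1 CPM. Macrophages of CNC_AngII had 909 CPM (896 to 922), 2.07 times the fibroblast level. These macrophages held 73.1% of all Ccl2 UMIs and 69.6% of all Ccl7 UMIs of that library, while fibroblasts held 13.9% and 18.5%. Fibroblasts were only 8.18% of the cells of CNC_AngII and macrophages 17.2%, shares that the sort could set.

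Ccl8, which codes for a further monocyte chemokine and lies at the far end of the same run (chr11:82115185-82116799, plus strand), had its highest level in macrophages. Macrophages of CNC_AngII had 2076 CPM (2057 to 2096) and 95.1% of the library's Ccl8 UMIs. Fibroblasts had 4.46 CPM in SHF_Baseline, 14.6 CPM in SHF_AngII and 14.1 CPM in CNC_AngII, so the macrophage level was 148 times the fibroblast level in CNC_AngII. Smooth muscle cells had 0 Ccl8 UMIs in both SHF libraries, which allows up to 0.102 CPM and 0.0432 CPM on a limit of 3 counts. Against that limit the fibroblast level was 43.9-fold higher in SHF_Baseline and 339-fold higher in SHF_AngII. The lower 95% bounds of the log2 ratio were 5.14 and 8.10. In CNC_AngII smooth muscle cells had 18.1 CPM (17.3 to 19), in 6.67% of cells. That level was 0.872% of the macrophage level, below the 1.01% to 1.57% at which the 11 macrophage markers were found in the same smooth muscle cells. The top 1% of smooth muscle cells held 78.9% of these Ccl8 UMIs, up to 134 in 1 cell, and their origin was not tested. The fibroblast levels of SHF_AngII and CNC_AngII were nearly equal, but not when 5% of the library profile was subtracted (log2 ratio -4.01, with the pseudocount). The fibroblast level of CNC_AngII was 0.677% of the macrophage level, within the 0.119% to 1.32% of the 11 macrophage markers in these fibroblasts. In SHF_AngII the 11 cells that met the macrophage gate had 0 Ccl8 UMIs, which allows up to 32.6 CPM. The origin of the fibroblast UMIs was not tested.

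Ccl11 codes for eotaxin (chr11:82057823-82062955, plus strand) and was measured almost only in fibroblasts and cells of no class. Its fibroblast level was 57.7 CPM (55.3 to 60.1) in SHF_Baseline, 31.8 CPM (30.2 to 33.5) in SHF_AngII and 27 CPM (24 to 30.2) in CNC_AngII. Smooth muscle cells had 0.372, 0.101 and 0.115 CPM, from 7 to 11 UMIs per library. Macrophages of CNC_AngII had 2 UMIs, a level of 0.097 CPM. Ccl11 lay between Ccl7 and Ccl8 on the chromosome but did not share their high macrophage level.

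Cxcl1 codes for a neutrophil chemokine, also called KC (chromosome 5, 90891241 to 90893115, plus strand). In fibroblasts it stood at 142 CPM (138 to 146) in SHF_Baseline, 555 CPM (548 to 562) in SHF_AngII and 501 CPM (488 to 514) in CNC_AngII. In smooth muscle cells it stood at 3.35 CPM (2.72 to 4.08), 29.5 CPM (28.2 to 30.8) and 35.5 CPM (34.4 to 36.8). Macrophages of CNC_AngII had 161 CPM (156 to 167), and the fibroblast level was 3.1-fold higher. Its UMIs in that library were divided over the classes, with 37.7% in fibroblasts, 22.7% in smooth muscle cells and 22.2% in macrophages.

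Il6 (chromosome 5, 30013114 to 30019981, plus strand) was mainly found in fibroblasts of all 3 libraries. Its fibroblast level was 190 CPM (185 to 194) in SHF_Baseline, 209 CPM (205 to 213) in SHF_AngII and 148 CPM (141 to 155) in CNC_AngII. Smooth muscle cells had 3.42, 4.17 and 1.06 CPM, and macrophages of CNC_AngII had 2.62 CPM (1.97 to 3.42). The macrophage level was 1.77% of the fibroblast level. The 8 fibroblast markers stood in these macrophages at 0.299% (Dcn) to 10.3% (Gsn), with a median of 0.739%. Il6 was below Gsn and above the other markers, of which Pdgfrb was highest at 1.21%. The origin of the macrophage UMIs was not tested. Fibroblasts held 79.2%, 72.8% and 68.1% of the Il6 UMIs of the 3 libraries. A UMI of Il6 was found in 24.7%, 51.9% and 45.2% of fibroblasts and in 1.65% of macrophages of CNC_AngII, with median depths of 9534, 15484 and 12344 UMIs in fibroblasts and 11102 in macrophages.

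The promoters of Cxcl1 and Il6 are shown because both genes were found in the same fibroblasts, as described further on, and that of Ackr3 because this gene was lower after AngII while several chemokines were higher. Each is RefSeq sequence of GRCm38.p6, plus strand, from 250 bases before the transcription start to the first 50 bases of the transcript, written 5′ to 3′. Capitals mark matches to a binding motif for NF-kB, to the AP-1 motif TGANTCA, to the C/EBP motif TTGCNNAA and to the TATA box TATAAA, each searched on both strands. Cxcl1 is chr5:90890995-90891294, Il6 is chr5:30012864-30013163 and Ackr3 is chr1:90203730-90204029.
Cxcl1: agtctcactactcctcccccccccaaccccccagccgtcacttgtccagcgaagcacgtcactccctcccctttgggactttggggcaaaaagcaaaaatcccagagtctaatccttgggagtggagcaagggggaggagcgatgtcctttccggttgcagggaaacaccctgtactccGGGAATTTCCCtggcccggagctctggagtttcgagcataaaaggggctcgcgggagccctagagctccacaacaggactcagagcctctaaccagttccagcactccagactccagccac
Il6: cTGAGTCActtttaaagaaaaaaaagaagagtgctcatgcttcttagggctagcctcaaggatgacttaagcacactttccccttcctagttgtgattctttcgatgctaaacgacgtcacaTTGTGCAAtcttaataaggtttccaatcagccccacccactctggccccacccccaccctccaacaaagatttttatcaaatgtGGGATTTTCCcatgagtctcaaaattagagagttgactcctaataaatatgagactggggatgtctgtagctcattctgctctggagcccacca
Ackr3: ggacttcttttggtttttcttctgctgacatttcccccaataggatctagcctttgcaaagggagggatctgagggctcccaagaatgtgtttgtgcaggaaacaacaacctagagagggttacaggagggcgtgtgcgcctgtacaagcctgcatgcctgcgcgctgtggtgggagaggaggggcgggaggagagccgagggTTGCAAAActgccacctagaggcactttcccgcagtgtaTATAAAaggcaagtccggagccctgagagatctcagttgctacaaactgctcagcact
The Cxcl1 window holds 2 overlapping NF-kB matches, 1 on each strand, between 61 and 71 bases before the start. The Il6 window holds an NF-kB match 35 to 44 bases before the start, a C/EBP match 121 to 128 bases before it and an AP-1 match 243 to 249 bases before it. The Ackr3 window holds a C/EBP match 40 to 47 bases and a TATA match 3 to 8 bases before the start. Among 32851 RefSeq promoter windows of the same length, 8.46% hold the NF-kB motif, 7.81% AP-1, 10.8% C/EBP and 13.6% TATA. Of the 10 members 6 have an entry in the promoter table, and of the other 3 with an entry Ccl8 holds a TATA match 27 to 32 bases before the start while Cxcl12 and Cxcl14 hold no match. A match is a run of letters and not a measured binding site.

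Cxcl12, which codes for the chemokine SDF-1 (chromosome 6, 117168535 to 117181367, plus strand), had a level in smooth muscle cells that was within 4-fold of the fibroblast level in each library. Its level was 217 CPM (213 to 222), 437 CPM (431 to 443) and 412 CPM (401 to 424) in fibroblasts, and 86.6 CPM (83.3 to 90), 161 CPM (158 to 164) and 106 CPM (104 to 108) in smooth muscle cells, in the order SHF_Baseline, SHF_AngII and CNC_AngII. Fibroblasts were thus 2.51, 2.71 and 3.88 times as high. Under the stricter cell filter the log2 ratio, with the pseudocount, was 0.63 in SHF_Baseline and 0.89 in SHF_AngII, under the 2-fold threshold. Macrophages of CNC_AngII had 4.85 CPM. A UMI of Cxcl12 was found in 45.3% to 55.3% of smooth muscle cells, against 3.59% of these macrophages. Because smooth muscle cells made up 62.6% of CNC_AngII, they held 56.4% of its Cxcl12 UMIs and fibroblasts 25.8%, although the fibroblast level was higher.

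Ackr3, the scavenger of Cxcl12 (chromosome 1, 90203980 to 90216751, plus strand), had a fibroblast level of 691 CPM (683 to 700) in SHF_Baseline, 235 CPM (231 to 240) in SHF_AngII and 171 CPM (163 to 179) in CNC_AngII. Smooth muscle cells had 22.9, 10.2 and 3 CPM and macrophages of CNC_AngII 0.679 CPM. Endothelial cells, taken from the cells of no class by at least 3 UMIs of Pecam1 and Cdh5 together, also carried the gene: 526 CPM in 106 cells of SHF_Baseline and 272 CPM in 50 cells of SHF_AngII. These endothelial cells held 9.84% and 5.19% of the Ackr3 UMIs of the cells in no class.

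Cxcl16 codes for a membrane-bound chemokine whose receptor is Cxcr6 (chromosome 11, 70453983 to 70459984, minus strand). Its fibroblast level was 65.1 CPM (62.6 to 67.7), 88.7 CPM (85.9 to 91.5) and 79.4 CPM (74.3 to 84.8) in SHF_Baseline, SHF_AngII and CNC_AngII, and its smooth muscle level 4.5, 4.19 and 4.46 CPM. Macrophages of CNC_AngII had 151 CPM (145 to 156), 1.9 times the fibroblast level and so within 2-fold. Endothelial cells had 116 CPM in SHF_Baseline and 161 CPM in SHF_AngII, above the fibroblasts of the same library.

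Cxcl14 (chromosome 13, 56288643 to 56296551, minus strand), a chemokine made in skin and other epithelia, had few UMIs at baseline. Fibroblasts of SHF_Baseline had 7 UMIs, a level of 0.185 CPM, and cells of no class 5; fibroblasts of SHF_AngII had 6.89 CPM (6.14 to 7.7) and those of CNC_AngII 41 CPM (37.4 to 44.9). Smooth muscle cells had 0, 3 and 13 UMIs, and macrophages of CNC_AngII had 4.56 CPM. The fibroblast UMIs lay in few cells: 3.45% of fibroblasts of SHF_AngII and 6.59% of those of CNC_AngII had any, and the top 1% of fibroblasts held 76.4% and 63.6% of them.

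**Figure D2:**
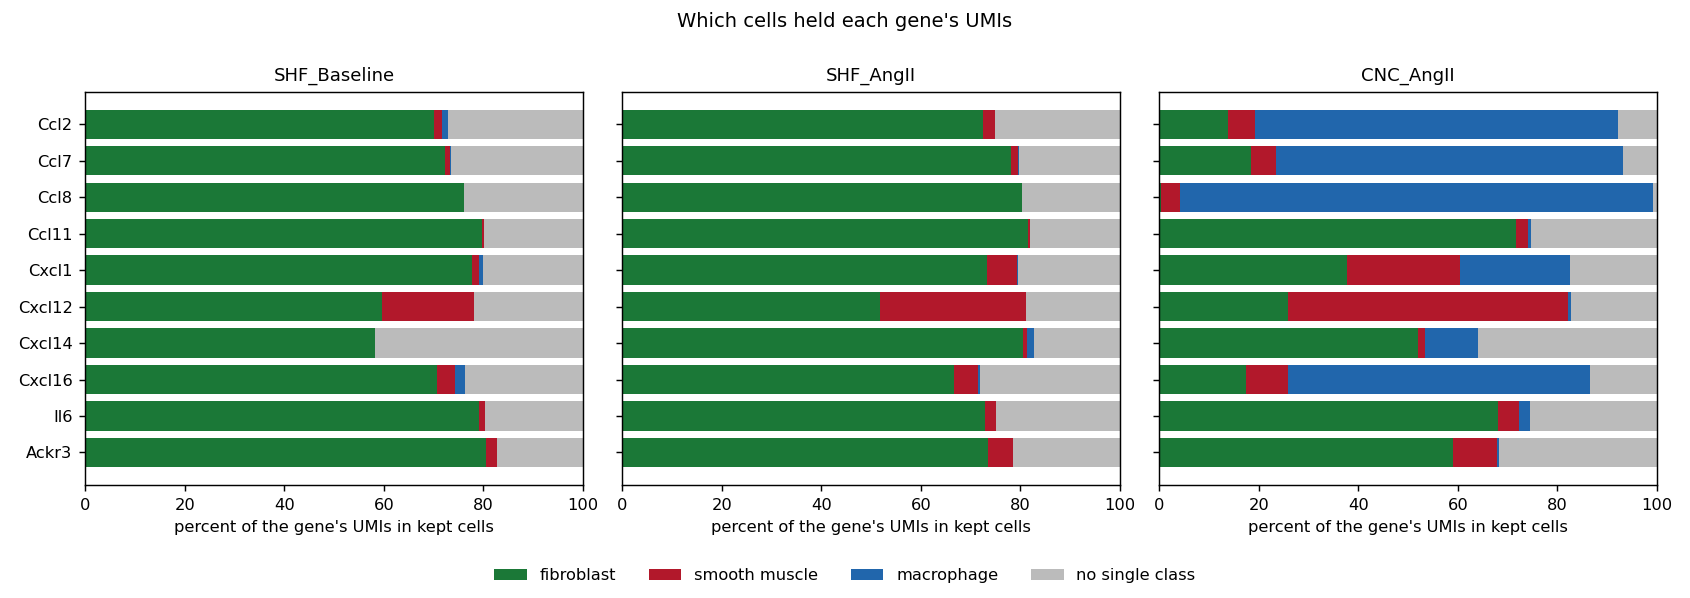
Share of each gene's UMIs (x axis, percent of those in all kept cells of the library) held by fibroblasts, smooth muscle cells, macrophages and cells that met no gate or more than 1. Fibroblasts hold the largest share of each of the 10 genes in SHF_Baseline and SHF_AngII, while in CNC_AngII macrophages hold 95.1% of Ccl8 and smooth muscle cells 56.4% of Cxcl12.

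AngII against baseline could be compared in the SHF libraries only. In fibroblasts, Ccl2, Ccl7, Cxcl1 and Cxcl12 were called higher in SHF_AngII than in SHF_Baseline and Ackr3 was called lower. Of the 8 members that passed the minimum, 4 were thus higher and 1 lower, beside 4.62% and 10.7% of all 7684 genes tested, and the members' median log2 ratio was 0.72 beside -0.21 over all genes. Ccl7 was 6.98-fold higher (log2 ratio 2.80, 95% interval 2.76 to 2.85), Ccl2 4.58-fold higher (2.20, 2.15 to 2.24) and Cxcl1 3.9-fold higher (1.97, 1.92 to 2.01). Cxcl12 was at the threshold with a 2.01-fold ratio (1.01, 0.97 to 1.05), and under it at 0.72 as a mean of per-cell CPM and at 0.91 after thinning. Ackr3 was 2.94-fold lower (-1.56, -1.59 to -1.52). Il6 differed by 1.1-fold, Cxcl16 by 1.36-fold and Ccl11 was 1.81-fold lower, each within 2-fold. Ccl8 and Cxcl14 were under the minimum level, with log2 ratios of 1.71 (1.47 to 1.97) and 5.22 (4.16 to 6.55).

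The libraries compared also differed in other ways. Immediate early genes, which respond within minutes to stimulation and to tissue digestion, summed to 23766 CPM in fibroblasts of SHF_Baseline and 12124 CPM in those of SHF_AngII. Of the 22 listed genes that passed the minimum, 9 were called lower and 0 higher, beside 10.7% and 4.62% of all genes tested. Fibroblasts had a median of 9534 UMIs in SHF_Baseline and 15484 in SHF_AngII, the fibroblast markers summed to 41058 and 20979 CPM, and smooth muscle markers in fibroblasts to 1504 and 4420 CPM. The baseline table was also made with another gene annotation. The part of these differences in the ratios above was not tested, other than for depth: among fibroblasts of 8000 to 16000 UMIs only, a range chosen after seeing the data, 3 members were called higher (Ccl2 at 104 and 369 CPM, Ccl7 at 96.2 and 633 CPM, Cxcl1 at 153 and 416 CPM) and Ackr3 was called lower (726 and 266 CPM), while Cxcl12 (215 and 385 CPM) was not. The share of all genes called in that range was not computed.

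The higher levels of Ccl2 and Ccl7 in fibroblasts went with a larger share of positive cells. In SHF_Baseline 5.61% of fibroblasts had a Ccl2 UMI and in SHF_AngII 38.8%. After each cell was thinned to 5000 UMIs, with 717 and 136 shallower fibroblasts left out, the shares were 4.41% and 29.3%. Ccl7 went from 6.48% to 49.2% (5.15% and 40.6% thinned) and Cxcl1 from 22.1% to 49.2% (18.8% and 39.7% thinned). In SHF_Baseline the top 1% of fibroblasts held 75.5% of the Ccl2 UMIs, in SHF_AngII 22%. Il6 had about the same level in both libraries but went from 24.7% to 51.9% of cells (20.4% and 36.6% thinned), and the share of its UMIs held by the top 1% of fibroblasts was 24% and 12.1%. Ackr3 went from 81.2% to 69.3% of fibroblasts (76.2% and 49.9% thinned).

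In smooth muscle cells 3 members passed the minimum for AngII against baseline. Cxcl1 was called higher and Ackr3 lower, 1 each, beside 2.86% and 3.47% of all 6995 genes tested. Cxcl1 was 8.81-fold higher (log2 ratio 3.14, 2.85 to 3.44) and Ackr3 2.24-fold lower (-1.17, -1.32 to -1.01). Cxcl12 was 1.86-fold higher (0.90, 0.83 to 0.96). Ccl2 and Ccl7 were under the minimum level. Under the stricter cell filter the log2 ratio of Ccl2, with the pseudocount, went from 1.46 to -1.95 and that of Ccl7 from 1.86 to -0.80. Ackr3 was not called lower with TMM scaling, after thinning, with a pseudocount of 10 or with a minimum of 50 CPM, and its ratio turned from -1.09 to 0.34 when 5% of the library profile was subtracted. Cxcl1, whose ratio lay between 1.57 and 4.26 over the alternatives, was under the minimum level after that subtraction, with a minimum of 50 CPM or with the 1% most positive cells left out.

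**Figure D3:**
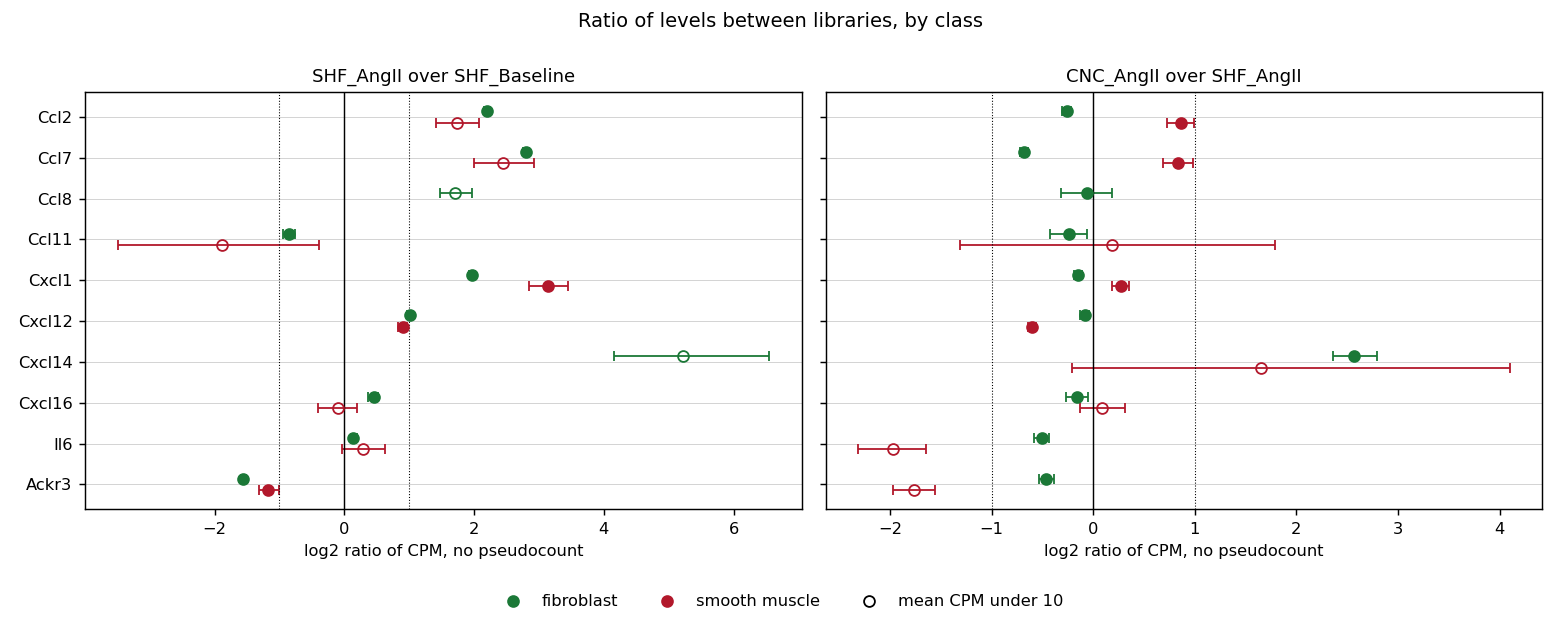
Log2 ratio of the level of each gene (x axis, without pseudocount) between 2 libraries in fibroblasts and smooth muscle cells, with 95% counting intervals. Open points have a mean under 10 CPM, pairs with a class at 0 or too few UMIs are not drawn, and dotted lines mark 2-fold. In fibroblasts Ccl2, Ccl7 and Cxcl1 lie well to the right and Ackr3 to the left in the AngII comparison, while 9 of the 10 genes lie within 2-fold between the AngII libraries.

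Between the AngII libraries, the members were close in fibroblasts. Of the 10 members, all above the minimum in this comparison, 1 was called higher in CNC_AngII and 0 lower, beside 0.361% and 0.153% of all 7201 genes tested. The member called higher was Cxcl14, 5.95-fold (log2 ratio 2.57, 2.36 to 2.79). The other 9 were within 2-fold, from 1.6-fold lower (Ccl7, -0.68, -0.72 to -0.64) to 1.04-fold lower (Ccl8, -0.06, -0.32 to 0.19). When the 1% most positive fibroblasts of each library were left out, Cxcl14 was no longer called. When 5% of the library profile was subtracted, the log2 ratio of Ccl8, with the pseudocount, went from -0.05 to -4.01. In smooth muscle cells 0 of 4 members that passed the minimum were called in either direction, beside 0.444% higher and 0.355% lower of all 6763 genes tested. Cxcl12 was 1.51-fold lower in CNC_AngII (-0.60, -0.64 to -0.56) and Cxcl1 1.2-fold higher (0.27, 0.19 to 0.35). Ccl2 and Ccl7 were 1.82-fold and 1.78-fold higher.

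The smooth muscle levels of Ccl2, Ccl7 and Ccl8 in CNC_AngII were set beside those of macrophage markers. RNA set free by other cells can give UMIs in droplets whose own cell does not express a gene. Genes from the same source would then keep the same ratio to that source. The part of such RNA in these levels was not tested. The 11 macrophage markers stood in smooth muscle cells of CNC_AngII at 1.01% (C1qc) to 1.57% (Cd14) of their macrophage level, with a median of 1.14%. Ccl2 and Ccl7 both stood at 1.55% and so within that range, and Ccl8 stood below it at 0.872%. The top 1% of these smooth muscle cells held 71.5% of their Ccl2 UMIs and 67.4% of their Ccl7 UMIs. Cxcl16 stood at 2.96% and Cxcl1 at 22%, above it. When smooth muscle cells with any UMI of C1qa, C1qb or Lyz2 were left out, an alternative chosen after seeing the data that kept 3570 of 6385 cells, Ccl2 in smooth muscle cells of CNC_AngII went from 17.7 to 5.49 CPM, Ccl7 from 14.1 to 5.26 CPM and Ccl8 from 18.1 to 4.04 CPM. Cxcl1 went from 35.5 to 32.5 CPM and Cxcl12 from 106 to 90.4 CPM. In SHF_AngII, where that step kept 4636 of 4649 cells, Ccl2 went from 9.73 to 5.83 CPM and Ccl7 from 7.93 to 7.53 CPM. After it, the log2 ratio of CNC_AngII over SHF_AngII in smooth muscle, with the pseudocount, was -0.07 for Ccl2 and -0.45 for Ccl7 instead of 0.80 and 0.76.

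The same comparison was made with fibroblasts as the source. Of the 8 fibroblast markers, Pdgfrb stood highest in smooth muscle cells, at 44.6% to 55.1% of the fibroblast level, and the lowest were Dpt at 1.32% and 2.1% in the SHF libraries and Dcn at 0.435% in CNC_AngII. Cxcl12 stood at 39.9%, 36.8% and 25.8% in SHF_Baseline, SHF_AngII and CNC_AngII. Cxcl16 stood at 6.91%, 4.72% and 5.62%. In SHF_AngII it was below Lum (5.56%) and Serpinf1 (6.35%). In SHF_Baseline it was above Gsn (5.46%), Lum (4.34%) and Serpinf1 (2.92%) and below Col1a1 (19.2%). In CNC_AngII it was above Serpinf1 (1.34%) and Lum (0.794%) and below Col1a1 (29.7%). Cxcl1 stood at 2.36%, 5.32% and 7.1%, and Ackr3 at 3.31%, 4.33% and 1.76%. Ccl2 stood at 2.82%, 2.06% and 4.49%, Il6 at 1.8%, 2% and 0.72%, and Ccl7 at 1.44%, 1.13% and 3.21%, so these 3 were below Dpt in SHF_AngII and above the lowest marker in the other libraries. In SHF_AngII the top 1% of smooth muscle cells held 75.1% of the Ccl2 UMIs and 62.1% of the Ccl7 UMIs, and the origin of these UMIs was not tested. Ccl11 stood at 0.646%, 0.316% and 0.425%, below the lowest marker in both SHF libraries. In CNC_AngII its interval of 0.21% to 0.772%, from 11 smooth muscle UMIs, included the 0.435% of Dcn, so their order there was not resolved.

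**Figure D4:**
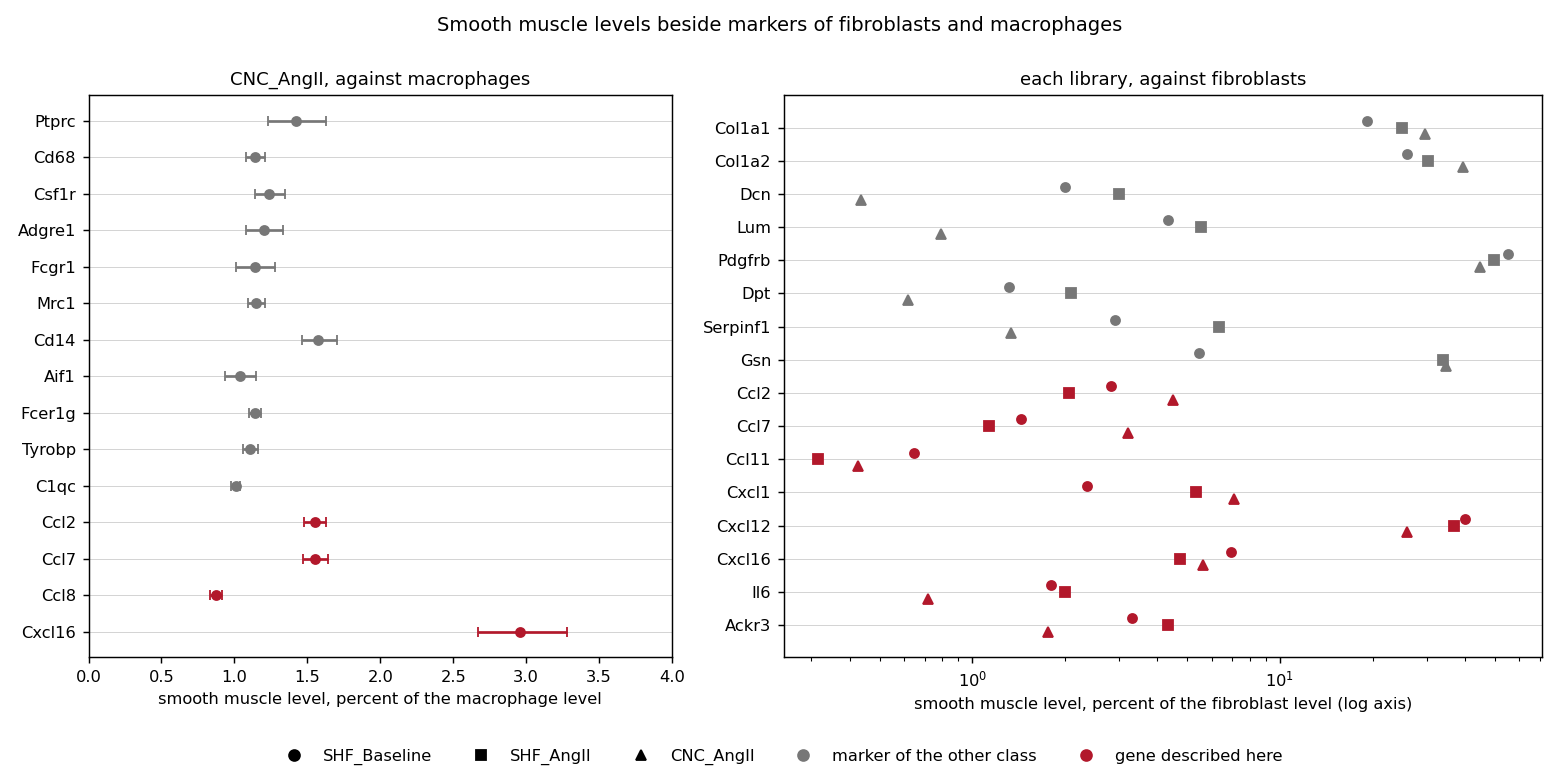
Level in smooth muscle cells as a percentage of the level in macrophages (left, CNC_AngII, with 95% counting intervals) or in fibroblasts (right, each library, log axis), for markers of the other class in grey and for genes described here in red. Ccl2, Ccl7 and Ccl8 lie within or below the range of the macrophage markers, while Cxcl16 lies above it. Among the fibroblast markers, only Pdgfrb lies above Cxcl12 in the SHF libraries, while Col1a1, Col1a2, Gsn and Pdgfrb do in CNC_AngII.

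Macrophages of CNC_AngII were split by Lyve1, a gene of resident vascular macrophages, and Ccr2, the receptor of Ccl2 and a gene of macrophages derived from monocytes. Of the 1756 cells, 1344 had a Lyve1 UMI, 284 had a Ccr2 but no Lyve1 UMI and 128 had neither. Ccl8 was lowest in the Ccr2-positive cells: its level was 2409 CPM in Lyve1-positive cells, 320 CPM in Ccr2-positive Lyve1-negative cells and 1491 CPM in cells with neither. The Lyve1-positive cells held 94.1% of the class's Ccl8 UMIs, and 16730593 of its 20627537 UMIs of all genes. Ccl2 was at 1098, 1181 and 1673 CPM in the same order. Ccl7 was at 935, 650 and 1173 CPM. Cxcl16 was lowest in Lyve1-positive cells, with 118, 256 and 383 CPM, and so was Cxcl1 with 117, 356 and 341 CPM. The subsets differed in depth, with medians of 11726, 9820 and 8050 UMIs, and a split on 1 UMI depends on depth.

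**Figure D5:**
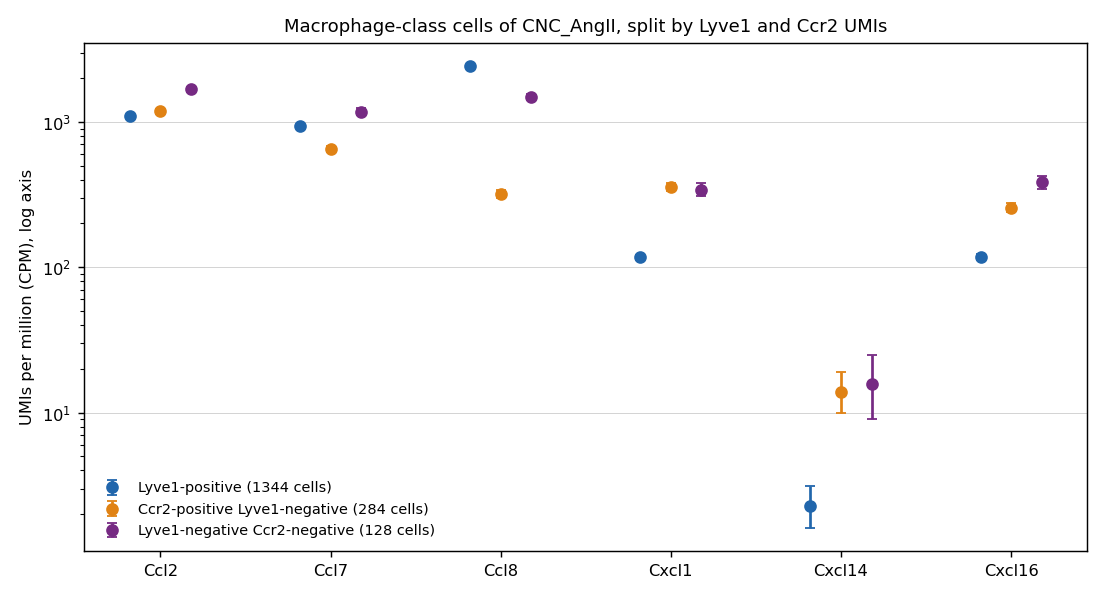
Level (y axis, CPM on a log axis) of 6 genes in macrophage-class cells of CNC_AngII, split by whether a cell had a UMI of Lyve1 or Ccr2, with exact 95% Poisson intervals. Ccl8 is highest in Lyve1-positive cells (2409 CPM) and Cxcl16 lowest in them (118 CPM).

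Fibroblasts were split in the same way by Pi16, a gene of adventitial fibroblasts, and by Cthrc1, a gene of matrix-producing fibroblasts. Ackr3 was higher in Pi16-positive than in Pi16-negative fibroblasts in each library: 759 and 253 CPM in SHF_Baseline, 247 and 94.4 CPM in SHF_AngII, and 185 and 70.3 CPM in CNC_AngII. Cxcl12 was lower in Pi16-positive fibroblasts, at 186 and 421 CPM in SHF_Baseline and 425 and 573 CPM in SHF_AngII, but at 410 and 427 CPM in CNC_AngII the difference was small. A Cthrc1 UMI was found in 476 of 3938 fibroblasts of SHF_Baseline, 1644 of 2638 of SHF_AngII and 466 of 834 of CNC_AngII. In SHF_Baseline, Cthrc1-positive fibroblasts had less Il6 than Cthrc1-negative ones (59.1 and 214 CPM) and less Cxcl1 (57.6 and 158 CPM), but more Ccl11 (100 and 49.7 CPM). In SHF_AngII the same pairs were 205 and 222 CPM for Il6, 597 and 435 CPM for Cxcl1 and 29.9 and 37.5 CPM for Ccl11, and Ccl7 stood at 780 and 486 CPM. Cxcl14 in CNC_AngII stood at 18.8 CPM in Cthrc1-positive and 87.9 CPM in Cthrc1-negative fibroblasts. Cthrc1-positive fibroblasts were deeper, with a median of 19226 against 10656 UMIs in SHF_AngII, and the part of depth in this split was not tested.

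Smooth muscle cells with at least 5 UMIs of Spp1, which codes for the matrix protein osteopontin and marks modulated smooth muscle cells, were compared with those that had none. They numbered 156 in SHF_AngII and 537 in CNC_AngII, and 1 in SHF_Baseline. Cxcl12 stood at 260 CPM in Spp1-high and 148 CPM in Spp1-negative cells of SHF_AngII, and at 177 and 89.6 CPM in CNC_AngII. Cxcl1 stood at 46 and 27.4 CPM in SHF_AngII and at 50.4 and 28 CPM in CNC_AngII. The Spp1-high cells were deeper, with a median of 23126 against 12700 UMIs in SHF_AngII and 21274 against 12492 in CNC_AngII, and the part of depth in their choice was not tested.

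Within fibroblasts Ccl2, Ccl7, Cxcl1 and Il6 were often found in the same cells. The correlations given here are Pearson's r of log counts over cells thinned to 5000 UMIs, which share a library. Over 2502 fibroblasts of SHF_AngII, r was 0.49 between Ccl2 and Ccl7, 0.39 between Ccl7 and Cxcl1, 0.36 between Ccl2 and Cxcl1, 0.32 between Ccl2 and Il6 and 0.31 between Cxcl1 and Il6. Of the fibroblasts with a Ccl2 UMI, 71.6% also had one of Ccl7, which was found in 40.6% of all of them. Over 761 fibroblasts of CNC_AngII, r was 0.47 between Ccl2 and Ccl7, and over 3221 of SHF_Baseline it was 0.31. Over 1685 macrophages of CNC_AngII, r between Ccl2 and Ccl7 was 0.58. Ccl8, Cxcl12, Cxcl14, Cxcl16 and Ackr3 reached no r of 0.2 with another member in fibroblasts.

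The genes most like each member over the same 2502 fibroblasts were searched among 6986 genes. For Cxcl1 they were Nfkbia (r = 0.55), which codes for the inhibitor of NF-kB and is itself induced by it, Zfp36 (0.48), which codes for a protein that destabilises cytokine mRNAs, and Ptx3 (0.40), a soluble pattern recognition gene. For Il6 they were Ptgs2 (0.46), the inducible cyclooxygenase, Cebpb (0.43), which codes for a C/EBP factor, and Nr4a1 (0.37). For Ccl2 they were Ccl7, Cxcl1 and Nfkbia (0.34), and for Ccl7 they were Ccl2, Cxcl1 and Ptx3 (0.39). For Ackr3 they were Pi16 (0.43), Ly6c1 (0.38) and Ly6a (0.36), and for Ccl11 Plac8 (0.33), Clec3b (0.28) and Tnxb (0.28). For Cxcl12 they were Igfbp4 (0.29), Serpina3n (0.26) and Ptx3 (0.25). No gene reached 0.2 for Ccl8, Cxcl14 or Cxcl16. Over the 7 class levels with at least 50 cells, the profile of Ccl8 was most like those of Slfn2 and Csf1r (r = 0.988 each), that of Il6 most like those of C3 and Dpep1 (0.998 each), and that of Ccl2 most like those of Ywhae and Ccl7 (0.996 each).

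Of the receptors of the members, Ccr2 and Cxcr4 had their highest level in macrophages of CNC_AngII. Ccr2, the receptor of Ccl2 and Ccl7, was at 113 CPM in macrophages, 1.43 CPM in smooth muscle cells and 0.177 CPM in fibroblasts. Cxcr4, the receptor of Cxcl12, was at 19.2 CPM in macrophages and at most 2.3 CPM in any other class level. Ccr3 (Ccl11) was at 1.6 CPM in macrophages, Cxcr2 (Cxcl1) had at most 4 UMIs in any class, and Cxcr6 (Cxcl16) had 0 in each of the 7, which allows at most 0.265 CPM in the shallowest. Ackr2, a scavenger of CC chemokines, was called lower in fibroblasts of SHF_AngII than of SHF_Baseline, at 2.34 and 17.7 CPM.

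Several other chemokine ligands were higher in macrophages than in fibroblasts. Of 20 in the files, 11 passed the minimum in macrophages over fibroblasts of CNC_AngII, with 9 called higher and 1, Cx3cl1, lower, beside 18.5% and 17.6% of all genes tested. Their summed level was 12085 CPM in these macrophages and 251 CPM in fibroblasts. Pf4 was at 3052 and 5.04 CPM, Ccl6 at 2892 and 7.78 CPM, Cxcl2 at 2703 and 74.7 CPM, and Ccl12, which lies between Ccl11 and Ccl8, at 1067 and 2.03 CPM. In fibroblasts of SHF_AngII over SHF_Baseline, 4 passed the minimum and 3 were called higher (4.62% of all genes tested): Ccl9 (41.9 and 1.93 CPM), Cxcl2 (72.6 and 10.6 CPM) and Cxcl10 (46.1 and 9.9 CPM).

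Among genes of the interleukin 6 family and its signal chain, Il6ra was higher in macrophages of CNC_AngII than in fibroblasts, the main source of Il6. Il6st was highest in fibroblasts there, as Il6 was. In CNC_AngII the receptor gene Il6ra was at 51 CPM in macrophages, 3.8 CPM in fibroblasts and 1.75 CPM in smooth muscle cells, while Il6st was at 15.1, 112 and 39.3 CPM. In fibroblasts of SHF_AngII over SHF_Baseline, 15 of 20 genes of this list passed the minimum. Of these 15, 1 was called higher (Lif, at 21.1 and 4.8 CPM) and 3 lower (Lifr, Socs1 and Socs3), beside 4.62% and 10.7% of all genes tested. Socs3, a feedback inhibitor induced by Stat3, was at 671 CPM in fibroblasts of SHF_Baseline and 181 CPM in those of SHF_AngII, and at 286 and 115 CPM in smooth muscle cells. Socs3 was lower while Il6 was within 2-fold. Of 17 genes of the list of upstream cytokines and NF-kB feedback that passed in the same comparison, 1 was called higher (Nfkb2) and 1 lower (Tlr4), with a median log2 ratio of 0.12 beside -0.21 over all genes. Nfkbia was at 360 and 672 CPM in fibroblasts of SHF_Baseline and SHF_AngII, a ratio within 2-fold. The cytokines that induce many of these genes, Il1b and Tnf, were at 309 and 116 CPM in macrophages of CNC_AngII and at no more than 7.37 CPM in any other class level.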

How the data were processed

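Each deposited table holds raw UMI counts per gene and cell barcode, as whole numbers with no normalisation by the authors. Per the submitters' processing notes fastp, STAR 2.5, HTSeq 0.6.1 and the mm10 build were used, with no role or order given. The tables held 9412, 11166 and 11098 barcodes with 92474476, 147854476 and 150954701 UMIs for SHF_Baseline, SHF_AngII and CNC_AngII. The baseline table lists 18760 genes under older names, and each AngII table lists 32285 genes. Genes were matched by name (17576) or by a unique synonym in a RefSeq gene table (518), and 49 repeated names were left out.

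The cell filter required 500 genes or more and a mitochondrial share of 10% or less. Scrublet, run on each library in scanpy 1.11.5, marked 207, 192 and 279 cells as doublets, which were left out. Cells that met 2 gates (1, 2 and 8) were left out of both classes. UMIs were summed per class and divided by the class total (CPM). Levels have exact Poisson intervals and ratios conditional binomial ones, both 95% and for counting error only. The ratio script was checked on simulated counts. No test was run, since each group is 1 library. TMM scaling in edgeR 4.0.16 was tried as an alternative only. Shares of positive cells were also taken after thinning to 5000 UMIs, and a count of 0 was given a limit of 3 counts. A class was ranked with at least 50 cells.

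All 10 members are named with their values. The genes most like a member were the 3 with the highest Pearson r, over the 7 class levels (genes of at least 50 CPM in 1 of them) or over fibroblasts of SHF_AngII (genes with a UMI in 5% of cells, named at r of 0.2 or more). Genes of other lists were given by counts and named as receptors of a member or when called with a mean of at least 50 CPM, and others named were chosen after their values were seen. The members, lists and alternatives were chosen with earlier results of these data known.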

Additional observations from a re-analysis of the deposited data

Results flagged for a closer look

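Of the members above the minimum in smooth muscle cells and in fibroblasts, 3 had ratios of opposite sign between CNC_AngII and SHF_AngII. These differences between the classes were not tested, since each class level comes from 1 library. On the log2 scale with the pseudocount, Ccl2 was at 0.80 in smooth muscle cells and -0.26 in fibroblasts. Ccl7 was at 0.76 and -0.68. Cxcl1 was at 0.26 and -0.15. All 6 ratios are within 2-fold. For Ccl2 and Ccl7 the smooth muscle ratio was -0.07 and -0.45 once smooth muscle cells with a UMI of C1qa, C1qb or Lyz2 were left out. Ccl8 (4.26 and -0.05), Ccl11 (0.02 and -0.23) and Cxcl16 (0.07 and -0.16) also differed in sign. These were under the minimum level in smooth muscle cells, where Ccl8 had 0 UMIs in SHF_AngII.

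Cells that met the macrophage gate in the SHF libraries were too few to be ranked, but some carried members at levels above the limit that a count of 0 allows. In the 7 such cells of SHF_Baseline, Ccl2 was at 1017 CPM, Cxcl1 at 702 CPM and Cxcl16 at 917 CPM, above the fibroblasts of that library (103, 142 and 65.1 CPM). Of the 71 Ccl2 UMIs, 38 came from 1 cell. Of the 49 Cxcl1 UMIs, 43 came from 1 cell, while Cxcl16 was found in 7 of the 7 cells. In the 11 cells of SHF_AngII, Cxcl16 was at 304 CPM, above the 88.7 CPM of fibroblasts. Ccl8, the gene with the highest macrophage share in CNC_AngII, had 0 UMIs in both sets of cells, which allows up to 43 CPM and 32.6 CPM. These cells also carried markers of other classes: fibroblast markers summed to 7780 CPM in the 7 cells and 5753 CPM in the 11, and smooth muscle markers to 129 and 7903 CPM, and the part of these in the levels was not tested. Lyve1 was found in 1 of the 7 cells and in 0 of the 11.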

How the results depend on the processing

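Under 14 alternatives, 315 of 336 counts of members stayed within 1.5 times the value reported. The count of members higher in fibroblasts than in smooth muscle cells stayed within that range in all 3 libraries. Cxcl12 still fell under the 2-fold threshold there with the stricter cell filter, from 1.32 to 0.63 in SHF_Baseline and from 1.43 to 0.89 in SHF_AngII. The exceptions were mostly counts of 0 to 2 in comparisons between libraries. For SHF_AngII over SHF_Baseline in smooth muscle, the 1 member called higher became 2 with TMM scaling, 3 with a minimum of 1 CPM, and 0 with a minimum of 50 CPM, with 5% of the library profile subtracted or with the 1% most positive cells left out, since its mean level was then under the minimum. The 1 called lower became 2 with the stricter cell filter (1000 genes, 5% mitochondrial UMIs) and 0 with TMM, thinning, a pseudocount of 10, the 50 CPM minimum or the subtraction. In fibroblasts the 1 called lower became 2 with the stricter filter, which added Ccl11 at -1.04. For CNC_AngII over SHF_AngII in smooth muscle, 0 called higher became 3 with doublets kept, and 1 with stricter gates, TMM, totals without mitochondrial and ribosomal genes or the 1 CPM minimum, which also gave 2 lower. In fibroblasts the 1 higher became 0 with the 50 CPM minimum or without the 1% most positive cells. With doublets kept, 1 member, Ccl8 at -1.52, was lower in fibroblasts than in smooth muscle cells of CNC_AngII. Of 1160 single ratios over the alternatives, 340 moved outside the counting interval around the reported value and 1 was reversed. The reversed one was Ackr3 for SHF_AngII over SHF_Baseline in smooth muscle, which turned from -1.09 to 0.34 with the subtraction. For CNC_AngII over SHF_AngII in fibroblasts, Ccl8 went from -0.05 to -4.01 with the subtraction and to 0.84 with cells of 2 gates kept. In the same comparison Cxcl1 went from -0.15 to 0.31 with 8000 to 16000 UMIs only. The cause of these was not tested. TMM moved the median of all genes for SHF_AngII over SHF_Baseline from -0.21 to 0.07 in fibroblasts and from -0.10 to 0.08 in smooth muscle. No paired analysis was possible because each group has 1 library and no result comes from a test. The depth limits smooth muscle values under 1 CPM, which rest on 13 UMIs or fewer.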
